A study of Mus musculus with 3 samples.

Results

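The guanylate-binding proteins examined here are the 9 mouse genes Gbp2, Gbp2b, Gbp3, Gbp4, Gbp5, Gbp6, Gbp7, Gbp8 and Gbp9, taken by their gene names in the annotation GENCODE M21 out of 55536 annotated genes. Their RNA was measured in 3 libraries from bone-marrow-derived macrophages of strain C57BL/6J, which are macrophages grown from marrow cells in culture. All 3 libraries belong to 1 condition: cells received 100 ng/ml of Lipid A, the membrane anchor of lipopolysaccharide and the ligand of Toll-like receptor 4, over 12 h, were then kept without it for another 12 h, and were given 100 ng/ml anew for 25 min before harvest. The RNA came from the chromatin fraction, which is rich in transcripts still being made or not yet released, and was depleted of ribosomal RNA. The RNA used to start a library was 1 µg for replicate 1, 250 ng for replicate 2 and 500 ng for replicate 3. The labels give the replicates the same donor identifier and do not say whether they came from separate animals, so every spread below is that between these 3 libraries and may be technical. No sample without Lipid A was analysed here, so no effect of the treatment was computed.

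Guanylate-binding proteins are large GTPases that cells make in quantity after exposure to interferons. They gather on vacuoles that hold bacteria or parasites and on bacteria in the cytosol, where they help to break membranes and to expose lipopolysaccharide to caspase-11, the sensor encoded by Casp4 in the mouse. In macrophages, Lipid A leads to release of interferon beta, which acts on its target genes through promoter sites called interferon-stimulated response elements (ISREs). Interferon gamma acts mainly through a different site, the gamma-activated sequence (GAS).

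The 9 genes lie in clusters on chromosomes 3 and 5 of the genome build GRCm38 (mm10). On chromosome 3, the span from base 142493978 to base 142638008 (144 kb) holds Gbp5, Gbp7, Gbp3, Gbp2b and Gbp2, all on the plus strand, with the processed pseudogene Gm43802 inside Gbp7 and the microRNA gene Mir6381 on the opposite strand inside Gbp2. On chromosome 5, the span from base 105014150 to base 105346472 (332 kb) holds Gbp8, Gbp9, Gbp4 and Gbp6 on the minus strand, together with Gm43302, Gbp10 and the polymorphic pseudogene Gbp11. The annotated 5′ ends of Gbp8 (base 105139540), Gbp9 (base 105139539) and Gbp4 (base 105139586) fall within 47 bases of each other, and any pair of these 3 genes has 60 or 61 exonic bases in common. These are the outermost ends: the Gbp9 transcripts Gbp9-201 and Gbp9-203 begin at bases 105110276 and 105110277.

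**Figure D1:**
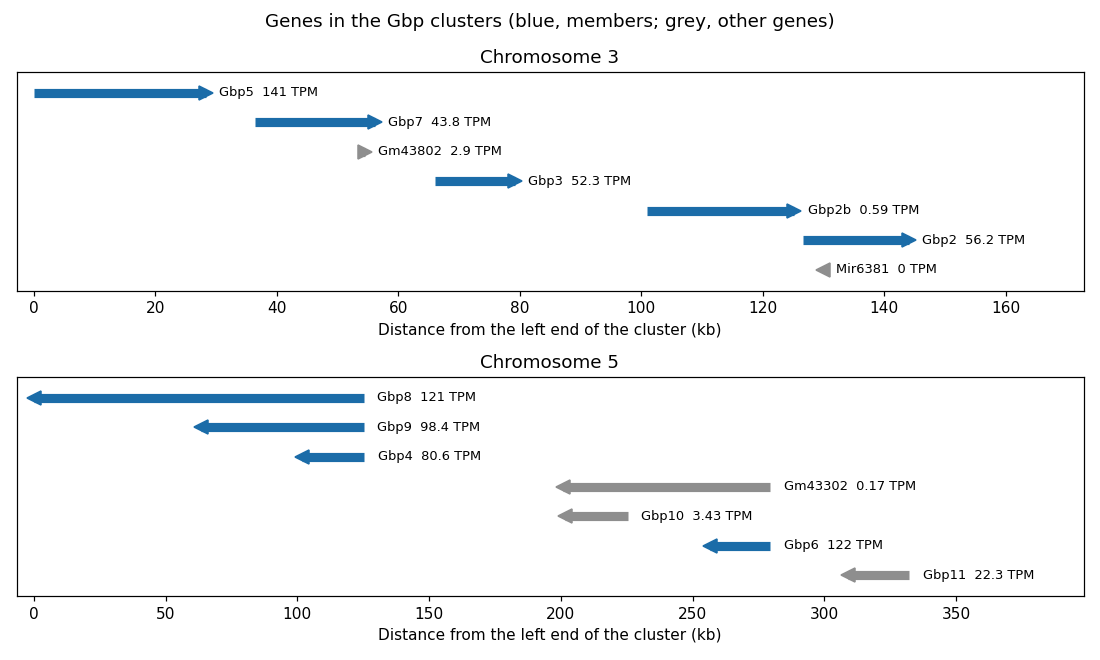
Gene spans in the chromosome 3 and chromosome 5 clusters, as distance in kb from the left end of each cluster, with arrowheads showing the direction of transcription and the mean TPM of 3 libraries beside each name. Gbp2b, at 0.590 TPM, lies between Gbp3 at 52.3 TPM and Gbp2 at 56.2 TPM. The annotated spans of Gbp8, Gbp9 and Gbp4 begin at nearly the same place, though not all their transcripts do.

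Promoter windows from RefSeq (build GRCm38.p6, 250 bases before to 50 after the start) were matched by symbol to 5 of the 9 genes: Gbp5, Gbp7, Gbp3, Gbp2b and Gbp2. Windows for Gbp4, Gbp6, Gbp8 and Gbp9 were not used here. The core of the ISRE was searched for as GAAA, any 2 bases and GAAA again, on both strands, and each of the 5 genes had at least 1 match, in 5 of 6 windows, since Gbp3 has 2. The same letters occurred in 3.44% of all 32851 RefSeq windows of that length. The stretches that hold these matches are shown because the element is the site through which interferon beta is known to act on this family. Every line is the plus strand, 5′ to 3′, and capitals mark the match, which reads TTTC, 2 bases and TTTC there because the core lies on the minus strand.
Gbp5, chr3:142496734-142496813: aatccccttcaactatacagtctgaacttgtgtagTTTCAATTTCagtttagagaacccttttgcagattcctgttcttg
Gbp7, chr3:142530248-142530327: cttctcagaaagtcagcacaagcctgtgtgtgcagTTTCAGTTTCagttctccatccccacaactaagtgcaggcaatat
Gbp3, chr3:142559946-142560025: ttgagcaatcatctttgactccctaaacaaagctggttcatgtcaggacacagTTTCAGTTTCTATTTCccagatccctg
Gbp2b, chr3:142594675-142594754: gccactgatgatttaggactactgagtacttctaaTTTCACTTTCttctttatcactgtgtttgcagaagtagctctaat
Gbp2, chr3:142620534-142620613: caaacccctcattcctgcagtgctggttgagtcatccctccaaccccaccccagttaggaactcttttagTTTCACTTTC

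The match began 165 bases before the RefSeq start in Gbp5, 53 in Gbp7, 45 in Gbp3, 137 in Gbp2b and 59 in Gbp2. For Gbp3 this is the RefSeq start at base 142560044. The window of its other RefSeq start, at base 142560356, held no ISRE match. Transcript Gbp3-202, which held 77.8% ± 11.2 of Gbp3 TPM (SD, n = 3), begins at base 142560411, nearer to that other start. In Gbp3, 2 overlapping matches formed a run with one more repeat of the motif, which 0.116% of all windows held. Gbp2b and Gbp2 carried the same 10 letters. In Gbp2 the annotation GENCODE places the start further upstream than RefSeq does, at base 142620602, so that the last 12 bases printed for it are exonic there. The GAS, searched for as TTCNNNGAA, a pattern that reads the same on both strands, was found in Gbp5 and Gbp7 and in 8.30% of all windows. In Gbp7 a match lies in the stretch above, 87 bases before the start, and another 106 bases before it. In Gbp5 the matches began 52 and 245 bases before the start. A pattern of the kind that NF-κB binds, GGGA, any 2 bases and TTCC on both strands, was added after the windows had been seen. It was found in Gbp5, 77 bases before the start, and in Gbp2, 7 bases after it, and in 1.47% of all windows. These are matches of letters in reference sequence and not measured binding.

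Levels are given as TPM, a unit scaled for gene length and library total, so that levels of different genes can be set side by side. Each library was quantified in 2 ways by the authors, from alignments (called the first quantification here, and used unless stated) and from reads and a transcript index (the second). A gene counts as detected with at least 1 TPM in every library. By this rule 8 of the 9 members were detected, Gbp2b being the exception, and the second quantification gave 8 as well. Among protein-coding genes, 44.0% were detected in the first quantification and 53.7% in the second. The median level of the 9 members was 6.28 ± 0.51 on the log2(TPM + 1) scale (SD, n = 3 libraries), against 0.61 ± 0.03 over all protein-coding genes and 3.56 ± 0.03 over those detected. Together the members held 0.365% of protein-coding TPM in replicate 1, 0.189% in replicate 2 and 0.221% in replicate 3. Their summed level was 1086, 499 and 561 TPM in the same libraries.

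Gbp5, a member with a C-terminal lipid-attachment motif that is known to promote assembly of the NLRP3 inflammasome, had the highest mean. It had 261 TPM in replicate 1, 68.3 TPM in replicate 2 and 94.1 TPM in replicate 3, a mean of 141 ± 104 TPM (SD, n = 3). Replicate 1 stood far above the other libraries, and the mean without replicate 1 was 81.2 TPM, below those of Gbp6 (95.1 TPM), Gbp8 (93.7 TPM) and Gbp9 (84.7 TPM) without it. Gbp2, which also carries the lipid motif and is known to coat pathogen vacuoles and cytosolic bacteria, had 91.2, 35.6 and 41.8 TPM in replicates 1, 2 and 3. Gbp2b, long known as mouse Gbp1 and the third member with such a motif, had 1.26, 0.240 and 0.270 TPM, from 44, 10 and 12 expected counts. These counts exceed the 3 that a count of 0 would allow, a limit that covers counting error only. Gbp2b shares 4.15% of the 31-base words in its annotated transcripts with Gbp2. Whether some of these counts are reads of Gbp2 was not tested. Only replicate 1 passed 1 TPM, and the mean was 0.590 ± 0.580 TPM (SD, n = 3) with replicate 1 and 0.255 TPM without it. C57BL/6 is known as a strain with little Gbp2b RNA.

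The other chromosome 3 members were Gbp3 and Gbp7, both of which are known to gather at parasite vacuoles in mouse cells. Gbp3 had 81.0, 35.3 and 40.6 TPM in replicates 1, 2 and 3, each just below Gbp2 in the same library. Gbp7 had 61.3, 38.0 and 32.2 TPM. The members of chromosome 3 thus ran over a wide range, with a median of 5.64 ± 0.63 on the log2(TPM + 1) scale.

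The chromosome 5 members, for which less is known of their single roles, had a median of 6.72 ± 0.45 on the same scale. Gbp6 had 175, 88.0 and 102 TPM in replicates 1, 2 and 3. Gbp8 had 175, 78.6 and 109 TPM. Both therefore had nearly the same mean, 122 ± 46.8 TPM for Gbp6 and 121 ± 49.3 TPM for Gbp8 (SD, n = 3 each). Gbp9 had 126, 86.2 and 83.1 TPM. Gbp4 had 115, 69.1 and 58.1 TPM. The lowest of these 12 values was thus 58.1 TPM, and all 4 genes were highest in replicate 1.

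**Figure D2:**
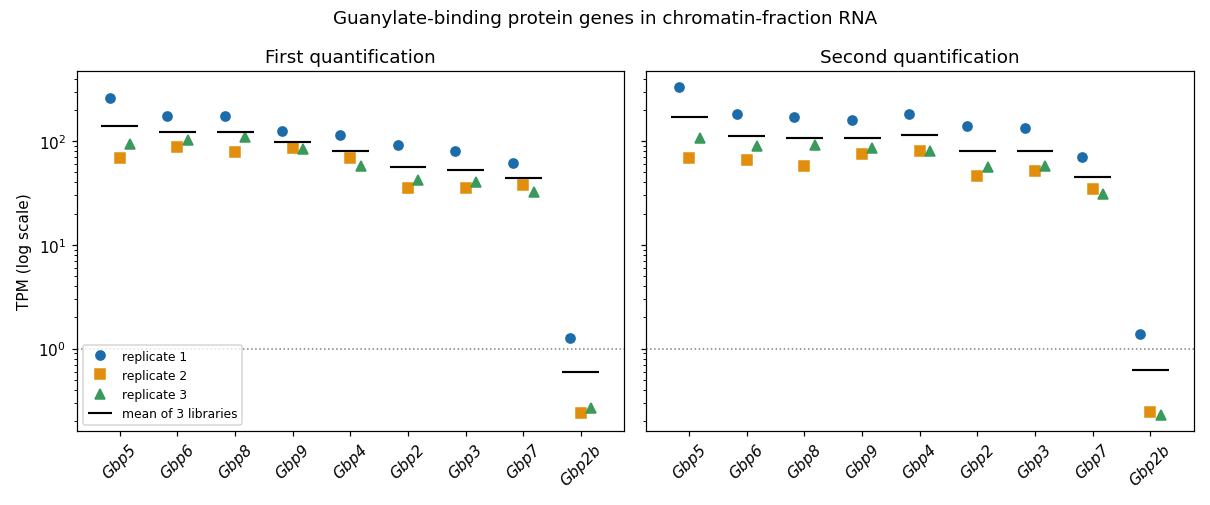
TPM on a log axis of each member in the first (left) and second (right) quantification, with a symbol for each of 3 libraries, a bar at their mean and a dotted line at the 1 TPM used for detection. Replicate 1 is the highest library for all 9 members in both panels, and Gbp2b lies well below the rest.

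In descending order of mean TPM the members were Gbp5, Gbp6, Gbp8, Gbp9, Gbp4, Gbp2, Gbp3, Gbp7 and Gbp2b. Neighbours in this order were compared within libraries by an exact two-sided sign-flip permutation test on log2(TPM + 1), for which 3 libraries cannot give a p below 0.25, so no pair could pass 0.05. Only Gbp7 and Gbp2b had ranges that did not overlap: Gbp7 was higher by 4.82 ± 0.14 on the log2(TPM + 1) scale (SD, n = 3, exact permutation p = 0.25, adjusted p = 0.5 over 8 pairs). The neighbours Gbp9 and Gbp4, Gbp4 and Gbp2, and Gbp2 and Gbp3 kept their order in all 3 libraries, with mean differences of 0.32, 0.58 and 0.07 (exact permutation p = 0.25 each). The remaining neighbours, Gbp5 and Gbp6, Gbp6 and Gbp8, Gbp8 and Gbp9, and Gbp3 and Gbp7, changed places between libraries. Of all 36 pairs of members, 28 kept 1 order in the 3 libraries, and 14 had ranges that did not overlap. Of these 14 pairs, 8 had Gbp2b as the lower gene, and the others set Gbp5, Gbp6, Gbp8 or Gbp9 above Gbp7, and Gbp6 or Gbp9 above Gbp3.

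The second quantification kept Gbp5 at the top, with 169 ± 141 TPM (SD, n = 3), and Gbp7 and Gbp2b at the bottom, with 44.9 ± 21.6 and 0.616 ± 0.654 TPM. It placed Gbp4 higher, at 115 ± 59.3 TPM against 80.6 ± 30.0 TPM in the first, and ranked it next to Gbp5. Gbp3 averaged 80.4 ± 45.4 TPM against 52.3 ± 25.0 TPM in the first, which is 1.54 times as much. The order among Gbp6, Gbp8, Gbp9 and Gbp4 was therefore not the same in the 2 quantifications.

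The coding sequences of the chromosome 5 members are alike, which bears on how reads were divided among them. Over the longest annotated coding sequences, Gbp6 and Gbp10 were identical at 98.4% of aligned bases, Gbp8 and Gbp11 at 93.9%, and Gbp4 and Gbp8 at 92.8%. On chromosome 3 the closest pairs were Gbp2 and Gbp2b at 82.5% and Gbp3 and Gbp7 at 78.3%. Of the 31-base words in its annotated transcripts, Gbp6 shared 74.2% with at least 1 other gene, mostly Gm43302 and Gbp10. The share was 31.1% for Gbp8, 18.3% for Gbp9, 14.7% for Gbp7 and 14.3% for Gbp4, and between 3.05% and 5.64% for Gbp5, Gbp2b, Gbp2 and Gbp3. A read from such a shared word can be given to either gene, so these levels are uncertain to that extent. The 2 quantifications nevertheless lay closer for Gbp6, at 0.928 times the first in the second, than for Gbp4 (1.43 times) or Gbp3 (1.54 times). Gm43302 was listed at 0.0600, 0.130 and 0.320 TPM in replicates 1, 2 and 3. Its annotated span, from base 105214907 to base 105293695, overlaps that of Gbp6 and holds that of Gbp10, all on the minus strand. How many of the words it shares with Gbp6 are the same bases of the genome was not computed. Gbp10 was listed at 4.28, 5.23 and 0.780 TPM in replicates 1, 2 and 3, and Gbp11 at 36.1, 11.3 and 19.5 TPM. The strand setting of the counting is not given in the sources used here, so reads of Gbp2 and of Mir6381 inside it cannot be told apart: Mir6381 was listed at 0 in the first quantification and at 57.5 ± 30.0 TPM (SD, n = 3) in the second.

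Replicate 1 was the highest library for all 9 members by TPM in both quantifications. The share of all genes highest in replicate 1 by TPM was not computed. The sum over protein-coding genes was also highest there, at 297805, 263925 and 253610 TPM in replicates 1, 2 and 3. Their median was not: it was 0.59, 0.64 and 0.59 on the log2(TPM + 1) scale in the same libraries. TMM scaling corrects CPM (counts scaled to the library total) for differences in library composition. After it, replicate 1 was highest for 8 of the 8 members that passed the filter on low counts, Gbp2b having failed it. Of all 14193 genes fitted, 37.8% were highest in replicate 1. Replicate 1 lay above the gene's own mean by 1.07 on the log2 CPM scale for Gbp5, 0.78 for Gbp2, 0.71 for Gbp3 and 0.61 for Gbp4. For Gbp6 and Gbp7 it lay above by 0.57 each, for Gbp8 by 0.51 and for Gbp9 by 0.32. A deviation of at least 0.5 in replicate 1 was thus reached by 7 of the 8 members fitted, and by 5.60% of all genes fitted. Replicate 2 was the lowest library for 5 of the 8 (33.9% of all genes fitted), and replicate 3 for Gbp4, Gbp7 and Gbp9.

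**Figure D3:**
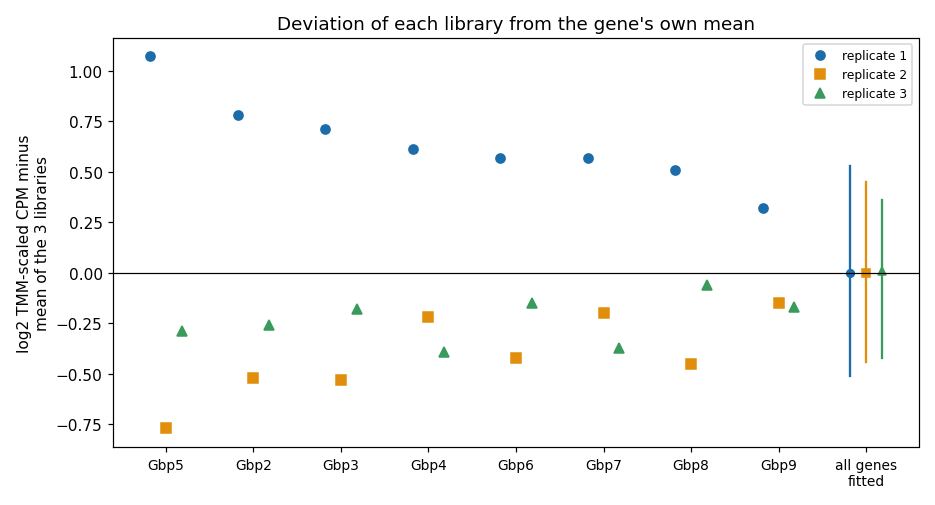
Log2 TMM-scaled CPM of each library minus the mean of the 3 libraries, for the 8 members fitted; at the right, the median (symbol) and the 5th to 95th percentile (line) over all 14193 genes fitted. All 8 members are above 0 in replicate 1 and below 0 in replicates 2 and 3, with Gbp5 farthest out at 1.07.

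The spread between libraries was also expressed as the biological coefficient of variation (BCV) from edgeR. It estimates the relative SD of a gene between libraries beyond counting noise. With 3 libraries edgeR draws each estimate towards that of genes of like abundance, so it is not the gene's own spread alone. Gbp5 had a BCV of 0.363, and 98.8% of all genes fitted had a lower value. Gbp2 followed with 0.285 and Gbp3 with 0.270. Gbp4, Gbp6, Gbp7 and Gbp8 had BCVs between 0.230 and 0.245, and Gbp9 had 0.193. The median of the 8 members was 0.244, against 0.203 over all genes fitted. All 8 lay above the trend that edgeR fits for genes of like abundance, as did 28.9% of all genes, although for Gbp9 both values were 0.193. Without replicate 1 the median BCV of the members was 0.150, against 0.164 over all genes fitted in the same way. The BCV was then 0.162 for Gbp5, 0.151 for Gbp2, 0.155 for Gbp3 and 0.156 for Gbp8, so the order of the members by spread changed. Without replicate 3 it was 0.237 for Gbp5, 0.236 for Gbp6 and Gbp9 and 0.227 for Gbp2 and Gbp3.

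**Figure D4:**
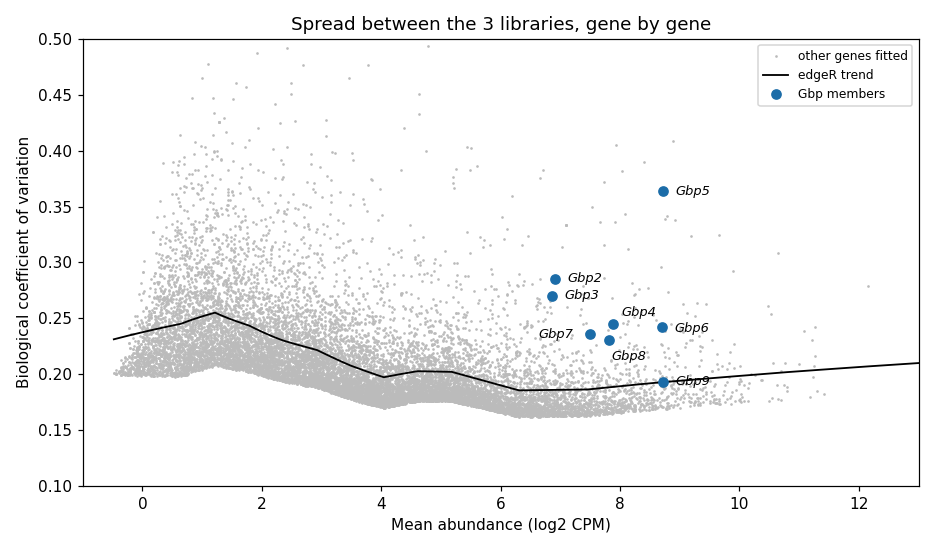
BCV against mean abundance in log2 CPM for all genes fitted (grey), the 8 members fitted (blue) and the edgeR trend (line); 41 of 14193 genes fall outside the axes. Gbp5 stands at 0.363 and Gbp9 on the trend at 0.193.

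Replicate 1 also differed in other ways: it had the largest starting amount of RNA, the fewest expected counts over annotated genes (13502401, against 17848798 in replicate 2 and 17824176 in replicate 3), and the largest share of expected counts outside the annotated genes (1.75%, against 0.396% and 0.239%). The chi-square statistic of the counts, divided by its degrees of freedom, was 151 between replicates 1 and 2, 84.4 between 1 and 3, and 33.0 between 2 and 3. It is set against counting error alone, and shows only that no library is a copy of another. The part of these differences in the higher Gbp levels of replicate 1 was not tested. In RNA from many cells, more cells that transcribe a gene and more RNA per such cell cannot be told apart.

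The annotation assigns each transcript to a class: protein coding, retained intron (an intron is kept within an exon), nonsense-mediated decay (an early stop codon marks the RNA for destruction) or processed transcript (no open reading frame). The chromatin fraction is rich in transcripts still being made, so reads within an intron may come from RNA whose introns are not yet removed. Such RNA and a finished retained-intron transcript cannot be told apart here. Which classes a member can use depends on what is annotated for it: Gbp2, Gbp3, Gbp7 and Gbp2b have no retained-intron transcript. Gbp2 and Gbp3 were at 99.1% ± 0.391 and 98.3% ± 0.481 protein coding (SD, n = 3), and Gbp7 and Gbp2b have only protein-coding transcripts in the annotation. In Gbp5, Gbp6, Gbp8, Gbp9 and Gbp4, by contrast, transcripts of other classes held between 66.9% and 75.7% of the gene's TPM. The second quantification put these 5 genes between 59.3% and 78.3%. Over 5863 protein-coding genes with a coding transcript and a transcript of another class and at least 5 TPM in every library, the median share outside the coding class was 52.4% in the first quantification and 60.7% in the second. The 5863 genes include these 5 members and also Gbp2 and Gbp3. Of these members, 5 were above the median in the first and 3 in the second, and Gbp2 and Gbp3 were below it in both. The 5 genes were grouped here by this same share, so their place against the median is no separate result.

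For Gbp5, the retained-intron transcript Gbp5-205 had 153, 35.0 and 52.0 TPM in replicates 1, 2 and 3, and the coding transcript Gbp5-201 had 65.4, 16.1 and 24.9 TPM. Gbp5-205 thus held 55.1% ± 3.79 of the gene's TPM (SD, n = 3), and 38.9% ± 2.51 in the second quantification. It has 2 exons and keeps introns 4, 5 and 6 of the 10 in Gbp5-201, which are 597, 329 and 887 bases long. The difference between quantifications came with Gbp5-204, a processed transcript that begins upstream of the others, which was listed at 0 in the first and held 22.4% in the second.

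For Gbp9, the retained-intron transcript Gbp9-203 had 94.0, 56.9 and 46.8 TPM in replicates 1, 2 and 3, against 27.9, 27.1 and 36.4 TPM for the coding transcript Gbp9-201. Gbp9-203 held 65.7% ± 9.20 of the gene's TPM (SD, n = 3) and 43.7% ± 6.32 in the second quantification. It keeps intron 7 of 10, which is 662 bases long, and otherwise has the ends of Gbp9-201 to within 1 base. The 2 transcripts can therefore be separated mainly by reads in or across that intron.

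Gbp6 divided its TPM among 3 transcripts. The retained-intron transcript Gbp6-202, with introns 4, 6 and 7 of 10, held 37.9% ± 3.67, Gbp6-203, of the decay class, held 37.7% ± 3.69, and the coding Gbp6-201 held 24.3% ± 5.51 (SD, n = 3 each). For Gbp4, the decay-class transcript Gbp4-202 held 49.8% ± 4.23 and the retained-intron transcript Gbp4-205, which keeps intron 2, held 21.8% ± 2.72. For Gbp8, the processed transcript Gbp8-204, which covers only the 3′ end of the gene, had 103, 34.9 and 71.5 TPM in replicates 1, 2 and 3 and held 56.4% ± 10.9 (SD, n = 3). The coding transcript Gbp8-202 was at 19.1 TPM in replicate 1 and listed at 0 in the others, but had 48.8, 0.122 and 14.0 TPM in the second quantification. Gbp8-201, which begins beside the start of Gbp4, had 33.6, 32.9 and 29.1 TPM. The coding transcript of Gbp9 that begins at that same place, Gbp9-202, was listed at 0 in replicates 1 and 3 and had 1.80 TPM in replicate 2. In the second quantification Gbp9-202 averaged 15.3 ± 7.68 TPM, so the 2 quantifications differ on it.

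**Figure D5:**
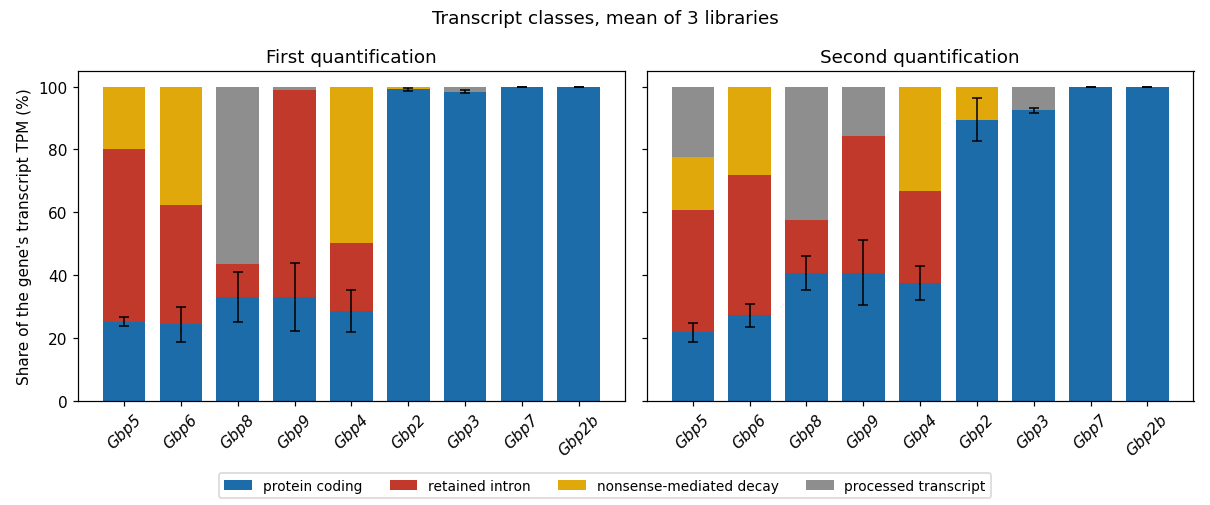
Share of each member's transcript TPM by annotated class, in percent, mean of 3 libraries, in the first (left) and second (right) quantification; error bars are the SD of the protein-coding share. Gbp5, Gbp6, Gbp8, Gbp9 and Gbp4 have most of their TPM outside the coding class, and Gbp2, Gbp3, Gbp7 and Gbp2b do not.

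The retained-intron shares were set beside those of other genes. Over 4726 protein-coding genes with both coding and retained-intron transcripts and at least 5 TPM in every library, the median retained-intron share was 46.0% in the first quantification and 44.9% in the second. Of the 5 members with such transcripts, Gbp5 and Gbp9 were above this median in the first quantification and none was in the second. From expected counts the median was 29.2%, and Gbp5, Gbp6 and Gbp9 were above it.

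The excess of replicate 1 was not equal over classes. For Gbp9, replicate 1 had 98.1 TPM of transcripts outside the coding class, 1.88 times the mean of replicates 2 and 3, and 27.9 TPM of coding transcripts, 0.854 times that mean. For Gbp4 the ratios were 2.11 outside the coding class and 1.16 within it. For Gbp6 they were 2.06 and 1.26. For Gbp8 they were 1.95 and 1.70, and for Gbp5 3.22 and 3.18, which is close to equal. In the second quantification the ratio was again larger outside the coding class for these 5 genes, from 2.57 against 1.29 in Gbp9 to 2.41 against 2.18 in Gbp8. For Gbp2 and Gbp3, whose TPM was nearly all coding, the ratio was smaller outside the coding class: 1.01 against 2.37 within it for Gbp2, and 1.22 against 2.15 for Gbp3. In the second quantification these were 0.629 against 3.07 for Gbp2 and 2.08 against 2.48 for Gbp3. Outside the coding class, Gbp2 had only Gbp2-202, with 4, 4 and 4 expected counts in replicates 1, 2 and 3. Gbp3 had only Gbp3-206, with 9, 7 and 10. Counts this low cannot show a difference between classes for these genes. All ratios in this paragraph set 1 library against 2 and carry no test.

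Genes that act before, beside and after the guanylate-binding proteins were described from lists of known pathway members. Of 5 interferon genes, none was detected by the 1 TPM rule. Ifnb1, which encodes interferon beta, had 18, 2 and 5 expected counts in replicates 1, 2 and 3, and Ifng, Ifna1, Ifna2 and Ifna4 were listed at 0. All 7 genes for interferon receptors and their kinases were detected, with a median of 5.19 ± 0.19 on the log2(TPM + 1) scale. Irf1, a transcription factor that binds ISREs, had 613, 247 and 374 TPM in replicates 1, 2 and 3, and was thus highest in replicate 1 and lowest in replicate 2, as Gbp5 was.

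The immunity-related GTPases, a second family of interferon-induced GTPases that guards pathogen vacuoles, were detected in 8 of 8 cases, with a median of 4.91 ± 0.47 on the log2(TPM + 1) scale. Iigp1 had 456, 188 and 121 TPM in replicates 1, 2 and 3. Replicate 1 was the highest library for 8 of these 8 genes by TMM-scaled CPM, as for the Gbp members, but replicate 2 was the lowest for none of them. All 9 genes of ATG8 conjugation, the autophagy machinery that guides these GTPases to vacuoles, were detected at a median of 3.92 ± 0.18, and 5 of the 9 were highest in replicate 1. Prenylation attaches the lipid to Gbp2 and Gbp5, and its list also holds genes for the later processing of the protein end. All 5 genes of this list were detected at 2.41 ± 0.26, and 1 of the 5 was highest in replicate 1. All 6 inflammasome genes were detected at 6.44 ± 0.47, and 4 of the 6 were highest in replicate 1 by TMM-scaled CPM. Casp4 had 153, 57.0 and 83.3 TPM in replicates 1, 2 and 3, with replicate 1 highest. Nlrp3 was highest in replicate 3, with 97.2, 66.2 and 100.1 TPM. Pycard, which encodes the adaptor ASC, was lowest in replicate 1, which deviated from its mean by -0.27 on the log2 CPM scale. Pycard had 12.2 TPM in replicate 2 and 7.92 TPM in replicate 3. The second quantification differed: Nlrp3 was highest in replicate 1, with 211, 88.3 and 156 TPM in replicates 1, 2 and 3. Pycard was lowest in replicate 3 there, with 7.62, 8.64 and 7.08 TPM.

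By distance of log2(TPM + 1) over the 3 libraries, the protein-coding genes with profiles most like the family mean were Fmr1 (0.134), Slc15a4 (0.137), Il2rg (0.153), Rap1b (0.164) and Nampt (0.209), out of 9681 compared. With 3 libraries this is a description of level and of the height of replicate 1.

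The cells carried the markers of the labelled type. All 10 macrophage markers were detected, with Adgre1 at 248, 353 and 292 TPM and Lyz2 at 181, 190.3 and 201 TPM in replicates 1, 2 and 3. By TMM-scaled CPM, 4 of the 10 were highest in replicate 1, and their summed level was between 1354 and 1405 TPM. In the first quantification, none of 5 natural killer cell markers, 4 dendritic cell markers, 5 neutrophil markers and 5 fibroblast markers was detected. Of 6 T cell markers only Cd4 was detected, of 4 B cell markers only Cd22, and of 4 endothelial markers Kdr and Pecam1. Kdr had 9.44, 1.80 and 2.99 TPM and Cd22 had 8.57, 5.27 and 2.12 TPM, both highest in replicate 1, while Cd3e, Gzma, S100a8 and Cldn5 were listed at 0. The second quantification detected more: 3 T cell, 1 natural killer cell, 2 dendritic cell and 1 fibroblast marker, with the same counts as the first for B cells, neutrophils and endothelial cells. Cd3d had a mean of 12.1 ± 4.41 TPM there, against 0.0300 ± 0.0265 TPM (SD, n = 3) in the first. In the first quantification, the summed level of the list over the 3 libraries was between 6.69 and 10.3 TPM for T cells, 2.24 and 8.72 TPM for B cells and 3.80 and 11.5 TPM for endothelial cells, and lower for each of the others. The part of such cells in the Gbp levels was not tested.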

How the data were processed

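For each library, 3 tables deposited by the authors were used. Per the file headers, 1 of them lists genes and 1 lists transcripts with RSEM column names: expected counts, TPM, posterior mean TPM and isoform shares in percent. Per the file headers, the other deposited transcript table has kallisto column names and holds estimated counts and TPM. The deposited notes name mm10 and GENCODE M21. The aligner and the program versions were not given in the sources used here; nor was the strand setting.

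Rows outside GENCODE M21 were left out of totals and tests. Second-quantification levels were summed per gene. Expected counts were rounded and fitted with edgeR 4.0.16 (intercept only, filterByExpr, TMM; checked on simulated data), with DESeq2 1.42.0 as an alternative, in R 4.3.3. The pseudocount was 1. A count of 0 allows 3 counts, or 0.222, 0.168 and 0.168 CPM in replicates 1, 2 and 3; this covers counting error only. Isoform shares in percent were recomputed from the deposited TPM. Transcripts were compared by 31-base words and by alignment of longest coding sequences. Alternatives were the second quantification, other thresholds, pseudocounts, scalings and dispersions, other motif spacings, and leaving out each library. The genes named are the members, listed pathway and marker genes (1 list of transcription factors is not reported here in full), the genes inside the clusters, and the 5 nearest profiles. Members and lists were chosen with earlier results of these data known.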

Additional observations from a re-analysis of the deposited data

How the results depend on the processing

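The number of members detected, their median level and their share of protein-coding TPM stayed within the limits set for them (1.5 times for counts, 1 SD for values) under every alternative run. For a mean of 3 libraries, leaving out 1 library cannot move the value by 1 SD, so those runs could not fail that limit. Single-gene means stayed within 1 SD with posterior mean TPM and with TMM-scaled CPM per kilobase. Without replicate 1 the mean of Gbp5 was 81.2 TPM, against 141 TPM with all libraries. The second quantification moved 2 of the 9, Gbp3 and Gbp4, and scaling to protein-coding genes alone raised all 9, Gbp5 to 502 TPM. Among neighbours in the order, the difference on the log2(TPM + 1) scale reversed in the second quantification for Gbp8 and Gbp9 (-0.06), Gbp9 and Gbp4 (-0.07) and Gbp2 and Gbp3 (-0.04). Leaving out single replicates gave differences from -0.24 to 0.23 for Gbp5 and Gbp6, negative without replicate 1, and from -0.04 to 0.08 for Gbp6 and Gbp8, negative without replicate 2. In the second quantification, the share outside the coding class was 10.5% for Gbp2, 7.59% for Gbp3, 62.5% for Gbp4 and 78.3% for Gbp5. From expected counts it was 0.238% for Gbp2, 0.501% for Gbp3, 91.0% for Gbp4, 77.9% for Gbp5 and 83.8% for Gbp6. The retained-intron share in the second quantification was 29.4% for Gbp4, 38.9% for Gbp5, 44.6% for Gbp6, 16.7% for Gbp8 and 43.7% for Gbp9, and from expected counts 42.4% for Gbp6 and 16.8% for Gbp8. The cause of these shifts was not tested. The median BCV of the members ran from 0.150 without replicate 1 to 0.230 without replicate 3, and from 0.228 to 0.247 under the other alternatives. Gbp5 had a BCV of 0.700 by the DESeq2 dispersion, 0.162 without replicate 1 and 0.237 without replicate 3. With one more repeat the ISRE pattern matched 1 member gene instead of 5, and with a 4-base spacer the GAS pattern matched 1 instead of 2. No paired analysis was possible because the series has 1 group. Low counts limit Gbp2b.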
